A study of Mus musculus with 24 samples.

Results

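Il10, Ebi3, Areg, Fgl2 and Penk, 5 genes through which regulatory T (Treg) cells act on other cells, are described. They were taken from the table of normalised read counts by matching each row's Ensembl identifier to a gene symbol, and all 5 members were found among 17464 listed genes and passed the filter on low values. The study compared bulk RNA-seq libraries of 3 Treg subsets sorted from the spleens of wild-type C57BL/6JRccHsd mice: resting Treg cells (rTreg, CD62L+ CD44-), activated Treg cells (aTreg, CD62L- CD44+) and KLRG1+ Treg cells (kTreg). Each subset came from the same 4 young mice, aged 2 months, and 4 old mice, aged 26 months, so there were 24 libraries in 6 groups of 4, and the replicate number names the mouse. In bulk libraries, more cells that express a gene and more RNA per cell cannot be told apart.

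Treg cells restrain immune responses partly through secreted proteins. Interleukin 10 (Il10) dampens myeloid and T cell activation, and Ebi3 is the chain that pairs with p35 to form interleukin 35 or with p28 to form interleukin 27. Amphiregulin (Areg) is a ligand of the epidermal growth factor (EGF) receptor that supports tissue repair, fibrinogen-like protein 2 (Fgl2) is a secreted suppressor that binds inhibitory Fc receptors on antigen-presenting cells, and Penk encodes proenkephalin, which is cut into the opioid peptides called enkephalins.

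The bases upstream of the start site are shown for the members that rose in kTreg cells and had an entry in the promoter table, so that their local sequence can be set beside levels that moved together. They are the 250 bases before the start of the gene on the plus strand, from RefSeq on GRCm38.p6, and 3 of the 5 members matched (Il10 and Penk did not). Capitals mark matches to any of 6 motifs searched on both strands. They were a cyclic AMP response element (CRE, TGACGTCA), the motif of the AP-1 factors (TGANTCA) and the TATA box (TATAAA). The motif of the STAT factors was searched as TTCNNNGAA, that of the GATA family of zinc finger factors as AGATAA, and that of the NFAT proteins as GGAAAA.
Ebi3, chr17:55952373-55952622: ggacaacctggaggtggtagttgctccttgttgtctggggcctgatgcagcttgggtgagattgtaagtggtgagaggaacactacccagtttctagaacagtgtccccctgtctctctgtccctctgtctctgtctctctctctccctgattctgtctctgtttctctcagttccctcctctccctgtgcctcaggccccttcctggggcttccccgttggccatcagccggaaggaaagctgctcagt
Areg, chr5:91139349-91139598: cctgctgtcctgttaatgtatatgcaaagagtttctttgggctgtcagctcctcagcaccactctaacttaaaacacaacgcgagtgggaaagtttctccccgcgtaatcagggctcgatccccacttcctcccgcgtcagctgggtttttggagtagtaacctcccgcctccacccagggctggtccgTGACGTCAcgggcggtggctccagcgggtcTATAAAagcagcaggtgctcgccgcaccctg
Fgl2, chr5:21372423-21372672: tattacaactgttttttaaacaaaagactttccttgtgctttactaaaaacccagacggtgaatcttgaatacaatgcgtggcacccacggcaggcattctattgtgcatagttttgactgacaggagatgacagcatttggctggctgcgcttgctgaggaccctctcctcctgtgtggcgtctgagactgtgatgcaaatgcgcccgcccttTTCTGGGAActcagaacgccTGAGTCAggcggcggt
The CRE in Areg, which ends 54 bases before the start, was found in 1.55% of the 32851 promoter windows of this length in the table, and its TATA box in 12.4%. The AP-1 motif of Fgl2, 10 bases before the start, was found in 6.75% of windows, and its STAT motif, 28 bases before the start, in 7.02%. The GATA motif (9.99% of windows) and the NFAT motif (20.4%) were found in no window of these 3 members, and the window of Ebi3 held none of the 6. No motif overlapped another. A match to these letters is a description and says nothing about binding in these cells.

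The libraries held between 15045747 and 29521942 reads on listed genes, and 1 read was worth 0.694 to 1.32 normalised units. Foxp3, the transcription factor that defines Treg cells, lay between 5079 and 37793 in the 24 libraries, with its lowest value in the old aTreg library of replicate 2. Klrg1 was at least 16559 in each kTreg library and at most 357 in each other library. The young kTreg library of replicate 4 stood apart with 4913 listed genes at 0, against 419 to 2756 elsewhere. RNA of other cells was measured in some libraries. The 8 macrophage and monocyte markers summed to 10289 to 26489 in old rTreg libraries, with Lyz2 as the highest, and to 581 to 8460 in young rTreg libraries. They summed to 22778 in the young kTreg library of replicate 2 and to 0 in that of replicate 4. The 6 basophil and mast cell markers summed to 3932 to 9961 in old rTreg libraries and to at most 651 in each other library. B cell markers were highest in all 3 libraries of young mouse 2, at 7921 to 16712.

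All 5 members had their highest group mean in kTreg cells at both ages. The order of the levels was rTreg, then aTreg, then kTreg for every member at each age when group means were compared. Per kilobase of exon, Penk was the most abundant member in all 6 groups, with means from 305 ± 135 (SD, n = 4) normalised reads per kilobase in young rTreg cells to 4968 ± 346 in old kTreg cells. In old kTreg cells Fgl2 came next at 1206 ± 125, then Ebi3 at 759 ± 86.4, Areg at 578 ± 209 and Il10 at 341 ± 99.3. In young kTreg cells the last 2 were in the other order, with Il10 at 532 ± 245 and Areg at 216 ± 90.6. Among the 16540 tested genes with a symbol and exon length, Penk ranked 125 by this level in old kTreg cells and 168 in young kTreg cells, against 3095 in young rTreg cells. Il10 ranked 1825 in young kTreg cells and 11734 in young rTreg cells.

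**Figure D1:**
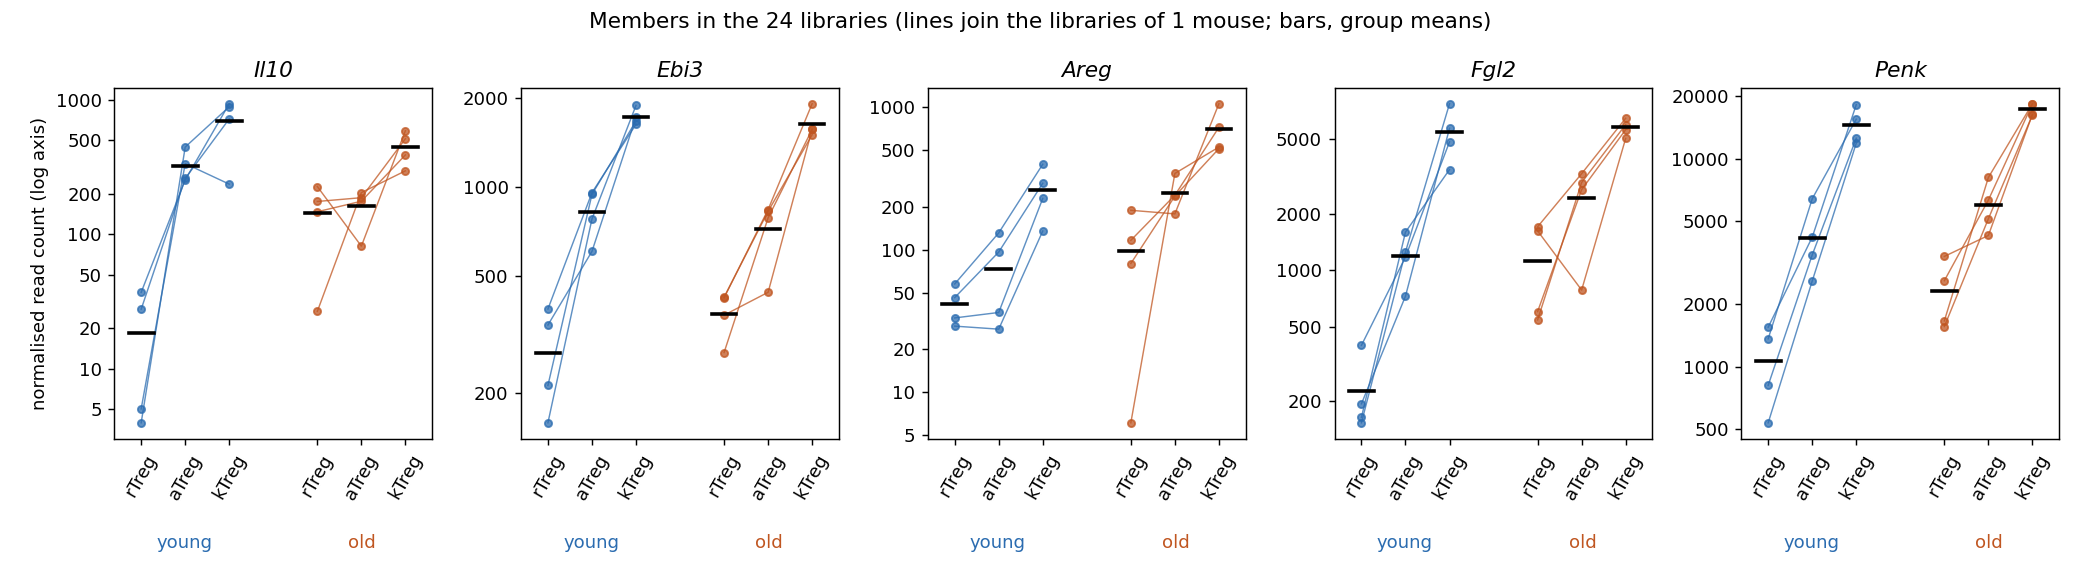
Normalised read counts (y, log axis) of the 5 members in each of the 24 libraries, by subset and age (x). Points are libraries, lines join the 3 libraries of 1 mouse and black bars are group means; Ebi3 and Penk rise along every line from rTreg through aTreg to kTreg, while the Il10 line of young mouse 4 turns down at kTreg, to 236.

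kTreg cells were compared with aTreg cells to ask whether KLRG1 marks cells with more of these transcripts than other activated cells hold. Across both ages 4 of the 5 members were called higher in kTreg cells, Ebi3, Areg, Fgl2 and Penk, where 4.13% of all 16630 tested genes were called higher. A gene was called when limma on log2(value + 1) gave it a Benjamini-Hochberg adjusted p under 0.05 and a fold change of more than 1.5. The median log2 fold change was 1.72 over the members and -0.08 over all tested genes. The members were chosen with earlier results of these data known. Counts and medians set beside all genes, here and below, therefore describe this list and are not a test of it. The fifth member, Il10, had a log2 fold change of 1.23 with an adjusted p of 0.089.

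Penk (ENSMUSG00000045573, chromosome 4, 4132722 to 4141856 on GRCm39, minus strand) reached 15481, 18192, 12543 and 11875 normalised reads in the young kTreg libraries of replicates 1 to 4. The young aTreg libraries held 6417, 4194, 3446 and 2582, and the young rTreg libraries 1361, 1548, 813 and 537. In old mice kTreg libraries held 16225, 16328, 18344 and 18379, aTreg libraries 5143, 4275, 6326 and 8122, and rTreg libraries 1559, 3388, 2590 and 1661. At each age the 3 subsets did not overlap, and Penk was higher in kTreg than in aTreg cells and higher in aTreg than in rTreg cells in all 8 mice. Over both ages it was 3.29-fold higher in kTreg than in aTreg cells (log2 fold change 1.72 ± 0.22 (SE), adjusted p = 1.8e-05). Against rTreg cells the log2 fold change was 3.43 ± 0.22 (adjusted p = 3.5e-10). The kTreg and aTreg difference was called at both ages, at 1.86 on the log2 scale for young mice and 1.58 for old mice. A830012C17Rik, a long non-coding RNA on the opposite strand whose exons overlap those of Penk, had group means between 4.14 and 142 normalised reads. Whether reads were counted by strand is not stated, so reads of these overlapping genes cannot be told apart.

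Ebi3 (ENSMUSG00000003206, chromosome 17, 56259270 to 56264023, plus strand) held 1628, 1722, 1670 and 1886 normalised reads in young kTreg libraries and 1501, 1567, 1912 and 1565 in old ones. In aTreg libraries it held 955, 604, 943 and 778 in young mice and 826, 439, 837 and 785 in old mice. It lay between 159 and 385 in young rTreg libraries and between 274 and 423 in old rTreg libraries. Every kTreg library was above every aTreg library, and the spread within kTreg cells was small, with a coefficient of variation of 6.55% in young and 11.4% in old mice. Over both ages Ebi3 was 2.23-fold higher in kTreg than in aTreg cells (log2 fold change 1.16 ± 0.17, adjusted p = 1.2e-04) and 5.44-fold higher than in rTreg cells (2.44 ± 0.17, adjusted p = 2.0e-09). It was called higher in kTreg than in aTreg cells at each age. Gm16712, a long non-coding RNA on the opposite strand with overlapping exons, had group means of 20.3 to 207 normalised reads, and counting by strand is again not stated.

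Fgl2 (ENSMUSG00000039899, chromosome 5, 21577640 to 21597055, plus strand, with Ccdc146 on the opposite strand and no shared exon bases) held 5730, 4848, 7754 and 3447 normalised reads in young kTreg libraries and 6482, 5057, 5993 and 5633 in old ones. Young aTreg libraries held 726, 1176, 1252 and 1598, and old aTreg libraries 3278, 783, 2939 and 2693. Young rTreg libraries held 193, 397, 153 and 164, and old rTreg libraries 1705, 1622, 542 and 601. All kTreg libraries lay above all aTreg libraries, while old aTreg and old rTreg libraries overlapped through the aTreg library of replicate 2, the one with low Foxp3. Over both ages Fgl2 was 3.52-fold higher in kTreg than in aTreg cells (log2 fold change 1.82 ± 0.30, adjusted p = 3.7e-04) and 12.1-fold higher than in rTreg cells (3.60 ± 0.30, adjusted p = 1.5e-08). Macrophages also express Fgl2, and macrophage markers were higher in old kTreg than in old aTreg libraries, at 2011 to 3082 against 233 to 336. In the young kTreg library of replicate 4, the one with 4913 genes at 0, all 8 of these markers were at 0 and Fgl2 stood at 3447. In the young kTreg library of replicate 2 they summed to 22778 and Fgl2 stood at 4848. The part of these cells in the Fgl2 differences was not tested.

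Areg (ENSMUSG00000029378, chromosome 5, 91287451 to 91296291, plus strand) held 399, 229, 293 and 135 normalised reads in young kTreg libraries against 131, 36.3, 96.5 and 27.7 in young aTreg libraries. In old mice the kTreg libraries held 513, 1061, 724 and 526, and the aTreg libraries 238, 179, 242 and 344. kTreg and aTreg cells did not overlap at either age, and Areg was higher in kTreg cells in all 8 mice. Over both ages the difference was 3.34-fold (log2 fold change 1.74 ± 0.49, adjusted p = 0.023), and it was lost without the young aTreg library of replicate 4 (1.56) or the old kTreg library of replicate 2 (1.63), and without young mouse 2 (1.64, adjusted p = 0.066). Within young mice alone the log2 fold change was 2.02 (adjusted p = 0.079), and within old mice alone 1.47 (adjusted p = 0.30). Against rTreg cells Areg was called higher over both ages (3.04 ± 0.49, adjusted p = 8.6e-05) and at each age. Basophils and mast cells can express Areg, and their markers were highest among kTreg libraries, at 651, in the old library of replicate 2, which also had the highest Areg. In the other old kTreg libraries these markers summed to 72.3 to 223, with Areg at 513 to 724. In old rTreg libraries they summed to at least 3932 and Areg lay between 6.10 and 189. The 3 listed markers of group 2 innate lymphoid cells (Il5, Il9r and Arg1) summed to 1489 to 3139 in young kTreg libraries. In old kTreg libraries they summed to 1481 to 2027, against at most 838 in each aTreg or rTreg library. Il9r alone had means of 2048 in young and 1618 in old kTreg cells. Il5 and Arg1 had group means of at most 35.8 and 43.6. The part of any of these cells in the Areg differences was not tested.

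Il10 (ENSMUSG00000016529, chromosome 1, 130947581 to 130952711, plus strand) held 938, 723, 891 and 236 normalised reads in young kTreg libraries and 254, 261, 446 and 336 in young aTreg libraries. In old mice kTreg libraries held 390, 590, 514 and 297, and aTreg libraries 176, 81.6, 187 and 204. Il10 was higher in kTreg than in aTreg cells in 7 of 8 mice, the exception being young mouse 4, whose kTreg library is the one with 4913 genes at 0. The old kTreg and aTreg libraries did not overlap, while the young ones did through that library. The difference over both ages was not called (log2 fold change 1.23 ± 0.46, 95% interval 0.27 to 2.18, adjusted p = 0.089). It was called without the young kTreg library of replicate 4, at 1.46, and without the old rTreg library of replicate 4, at 1.23. edgeR and DESeq2 on the recovered reads also called it, at 1.28, as did a fit of the compared groups alone, at 1.23. With the unadjusted p, 4 of 13 settings other than leaving out 1 library changed this call. Against rTreg cells Il10 was 13.2-fold higher over both ages (3.73 ± 0.46, adjusted p = 3.1e-06). That value averaged 5.52 in young mice and 1.94 in old mice, where it was not called (adjusted p = 0.061).

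Between aTreg and rTreg cells 4 of 5 members were called higher in aTreg cells over both ages, against 5.23% of all tested genes. Their log2 fold changes were 2.50 for Il10 (adjusted p = 8.5e-04), 1.29 for Ebi3 (adjusted p = 3.4e-05), 1.78 for Fgl2 (adjusted p = 4.2e-04) and 1.71 for Penk (adjusted p = 2.1e-05). For Areg it was 1.30 (adjusted p = 0.11). The value of Il10 averaged 4.56 in young mice and 0.44 in old mice, where it was not called (adjusted p = 0.75). Between kTreg and rTreg cells all 5 members were called higher, against 9.37% of tested genes, with log2 fold changes from 2.44 for Ebi3 to 3.73 for Il10. These 3 subset comparisons share libraries, so their values are given side by side.

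**Figure D2:**
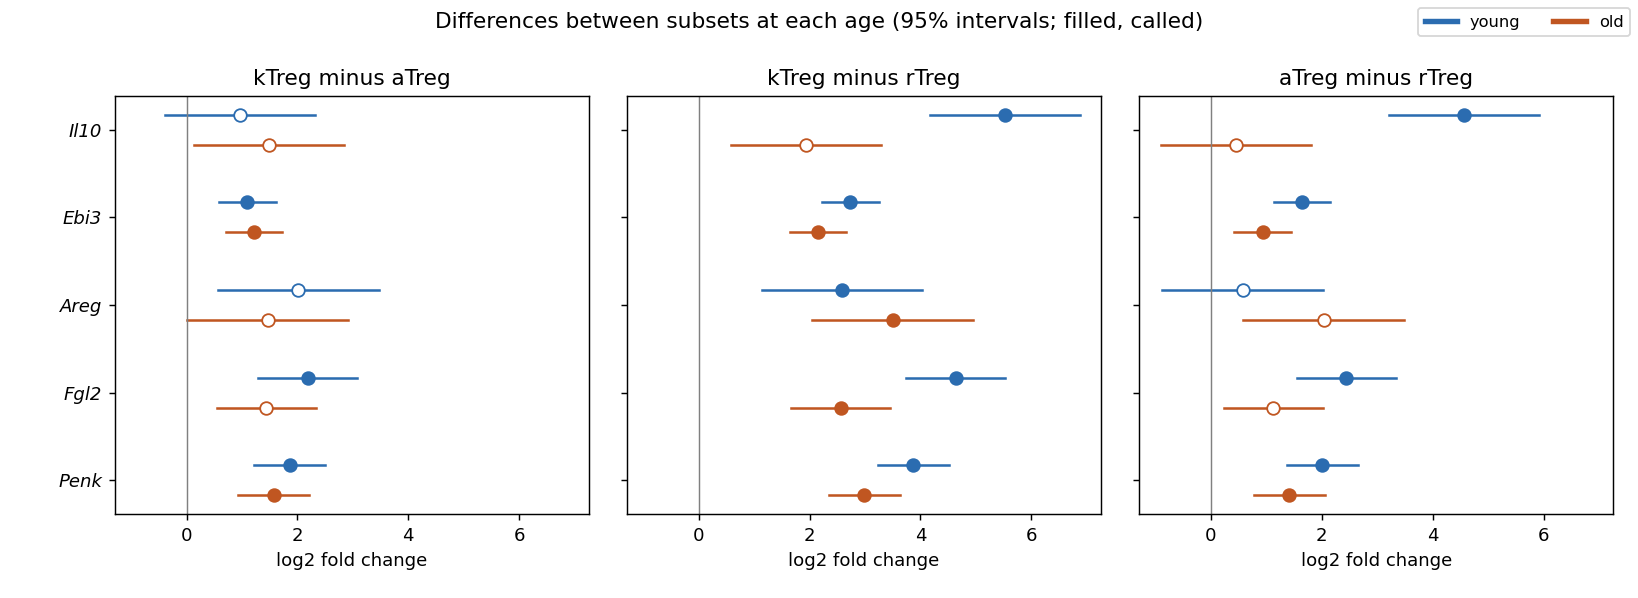
Log2 fold changes (x) of each member (y) between pairs of subsets in young (blue) and old (orange) mice. Points are fitted values with 95% intervals, and filled points were called; for Il10 the kTreg minus rTreg value is 5.52 in young and 1.94 in old mice.

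At each age alone, kTreg cells had 3 members called higher than aTreg cells in young mice (Ebi3, Fgl2 and Penk, where 3.46% of genes were called higher) and 2 in old mice (Ebi3 and Penk, against 1.33%). Fgl2 in old mice had a log2 fold change of 1.44 with an adjusted p of 0.080. No difference between the ages in the kTreg and aTreg contrast was called for any member, where 0.156% of genes were called in either direction. None was counted at an unadjusted p below 0.05 or by edgeR or DESeq2 either, and the 95% interval of that difference for Penk ran from -1.19 to 0.62. Against rTreg cells 5 members were called in young mice (8.24% of genes) and 4 in old mice (5.77%), the exception being Il10. Between aTreg and rTreg cells 4 were called in young mice (2.71%) and 2 in old mice (4.82%), Ebi3 and Penk.

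Old and young mice were compared within each subset to ask how age moved these transcripts. In rTreg cells 3 of 5 members were higher in old mice, Il10, Fgl2 and Penk, where 4.12% of tested genes were called higher. Il10 held 37.0, 27.7, 3.96 and 5.02 normalised reads in young rTreg libraries, from 3 to 36 reads each, and 147, 227, 176 and 26.7 in old ones. The old library of replicate 4 lay inside the young range, and the other 3 lay above it. The log2 fold change was 3.08 ± 0.65 (adjusted p = 0.0053). Fgl2 was 4.64-fold higher in old rTreg cells (2.21 ± 0.43, adjusted p = 0.0025), and its old and young libraries did not overlap. Penk was 2.23-fold higher (1.16 ± 0.31, adjusted p = 0.025), with the lowest old library at 1559 and the highest young library at 1548, and this call was lost without any 1 of 4 libraries (young replicates 3 and 4, old replicates 2 and 3), with values of 0.87 to 1.07. The log2 fold changes of Ebi3 and Areg were 0.50 (adjusted p = 0.24) and 0.54 (adjusted p = 0.71), and for Areg the old libraries spread widely, with 1 old library at 6.10 normalised reads and the others at 80.1 to 189.

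Markers of some other cell types were also higher in old than in young rTreg libraries. All 6 basophil and mast cell markers were called higher, as were 2 of 5 tested plasma cell markers (Prdm1 and Sdc1) and 2 of 6 NK cell markers (Klrb1c and Tyrobp). None of the 8 macrophage and monocyte markers was called alone, but their sums did not overlap between old and young rTreg libraries. The sums of the 3 listed platelet markers did not overlap either, at 451 to 981 in old and 42.2 to 73.8 in young ones. Among these 3, Itga2b had means of 687 in old and 26.1 in young rTreg cells. B cell markers were highest in young mouse 2. Their part in the rise of Il10, Fgl2 and Penk was not tested. Among the old rTreg libraries, the highest macrophage sum, 26489, was in replicate 3, which had the lowest Fgl2, at 542. The old library of replicate 4 had basophil and mast cell markers at 6421 and Il10 at 26.7. Among the young rTreg libraries the highest macrophage sum, 8460, and the highest Fgl2, 397, were both in replicate 2.

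In aTreg cells none of the 5 members was called between the ages by limma, where 2.71% of genes were called in either direction. At an unadjusted p below 0.05 and the same fold, 1 member was counted, against 8.15% of genes: Areg was higher in old mice (2.01 ± 0.70, 95% interval 0.56 to 3.45, adjusted p = 0.15), and DESeq2 called it while edgeR did not. Areg did not overlap between old aTreg libraries, at 179 to 344, and young ones, at 27.7 to 131. Fgl2 in aTreg cells had a log2 fold change of 0.89, and without the old aTreg library of replicate 2 and the young kTreg library of replicate 4 it was called, at 1.37 (adjusted p = 0.041). In kTreg cells none was called either, where 1.26% of genes were called in either direction. At an unadjusted p below 0.05 Areg was again the 1 member counted, against 11.4% of genes (1.45 ± 0.70, 95% interval 0.01 to 2.90, adjusted p = 0.32), and neither edgeR nor DESeq2 called it. Old kTreg libraries held 513 to 1061 normalised reads of Areg and young ones 135 to 399, so they did not overlap. For Penk in kTreg cells the interval of the difference ran from -0.37 to 0.91, and for Ebi3 from -0.59 to 0.43. For Fgl2 it ran from -0.75 to 1.04 and for Il10 from -1.86 to 0.85.

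**Figure D3:**
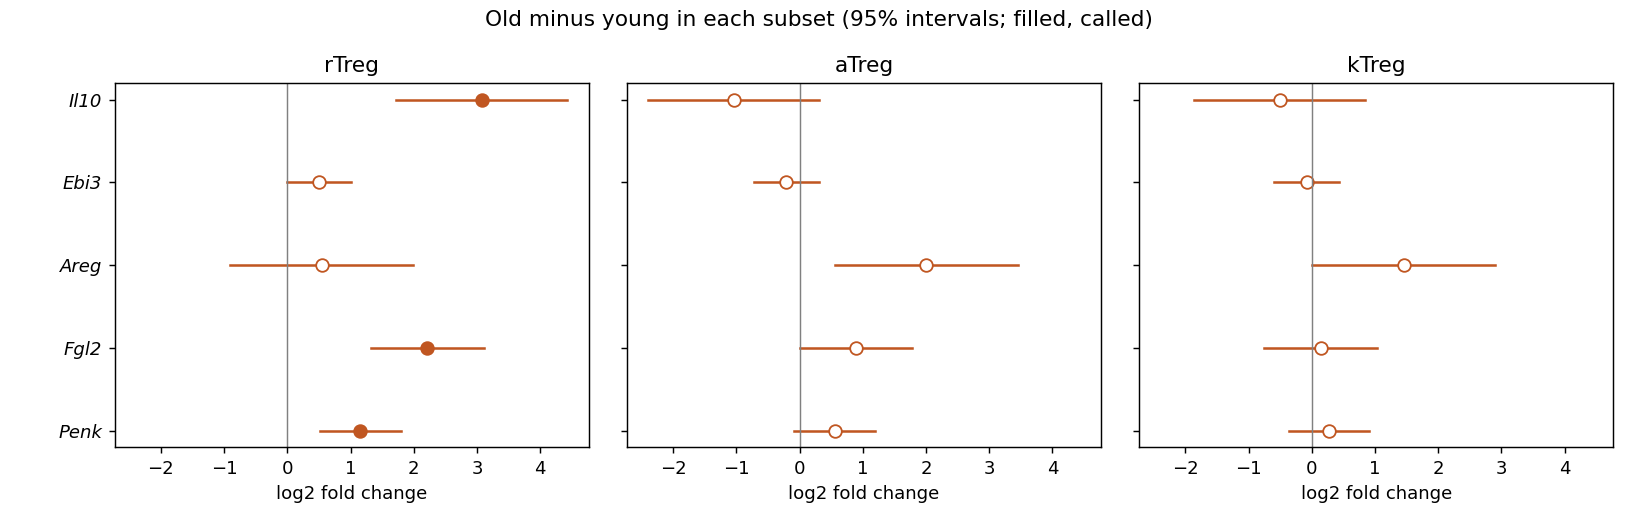
Log2 fold changes (x) of each member (y) between old and young mice in rTreg, aTreg and kTreg cells, with 95% intervals. Filled points were called, which were Il10, Fgl2 and Penk in rTreg cells; in kTreg cells the intervals of all members except Areg include 0.

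The difference between subsets changed with age for 1 member. For Il10 the kTreg and rTreg difference was smaller in old than in young mice, at 1.94 against 5.52, a difference of -3.58 ± 0.92 (adjusted p = 0.035) where 2.03% of genes were called lower. The aTreg and rTreg difference was 0.44 in old and 4.56 in young mice, a difference of -4.11 ± 0.92 (adjusted p = 0.027), against 1.05% of genes. Both contrasts share the rTreg libraries, in which old mice held more Il10 together with the markers of other cells given above, and young libraries of replicates 3 and 4 held 3 and 5 reads. The first call was lost without any 1 of 10 libraries (rTreg: young replicates 3 and 4, old replicates 1, 2 and 3; kTreg: young replicates 1 and 3, old replicates 1, 3 and 4), with values of -3.66 to -3.10. The second was lost without any 1 of 7 (young rTreg replicates 3 and 4, young aTreg replicates 2, 3 and 4, old aTreg replicates 1 and 2), with values of -4.21 to -3.64. For Fgl2 the kTreg and rTreg difference changed by -2.07 ± 0.61 with an adjusted p of 0.067, and edgeR and DESeq2 called it. Il10 was not called between kTreg and rTreg cells within old mice (1.94, adjusted p = 0.061), but with the mouse as a random block it was, at an adjusted p of 0.049. For Areg between aTreg and rTreg cells in old mice (2.03, adjusted p = 0.068) the mouse as a fixed block gave 0.046.

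Genes around the members were read from hand-written lists, also chosen with earlier results of these data known. Their counts beside all genes are likewise descriptions. Of 16 transcription factors and regulators known to act on Il10 in T cells, 8 were higher in kTreg than in aTreg cells by limma. In that contrast 4.13% of all tested genes were called higher. The median log2 fold change of the 16 was 0.58, and 0 were lower, also at an unadjusted p below 0.05. The list was not split by the direction in which each gene acts on Il10. Prdm1, which encodes Blimp-1, rose by 1.62 on the log2 scale (adjusted p = 2.2e-04), Gata3 by 1.16 (adjusted p = 2.1e-07), Ahr by 1.07 (adjusted p = 0.0023) and Zfp36, which speeds the decay of cytokine transcripts, by 1.02 (adjusted p = 0.0043). Against rTreg cells 10 were higher in kTreg cells, where 9.37% of all tested genes were called higher, and 1, Ikzf1, was lower. In old against young rTreg cells 8 of the 16 were higher, among them Maf, Prdm1 and Nfil3, where 4.12% of all tested genes were called higher. Prdm1 is also a plasma cell marker, and markers of basophils, plasma cells and NK cells were called higher in the same libraries, whose part was not tested. Of the 7 genes of IL-10 reception, 2 were higher in kTreg than in aTreg cells, the receptor chain Il10ra (1.55, adjusted p = 1.8e-04) and the kinase Tyk2 (0.71, adjusted p = 0.0024), and Socs3, a target and inhibitor of STAT3 signalling, was lower (-0.59, adjusted p = 0.021).

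The partners of Ebi3 were little measured. Il12a, which encodes the p35 chain of interleukin 35, had group means of 0.227 to 15.0 normalised reads, against 274 to 1727 for Ebi3, and Il27, which encodes p28, was not among the listed genes. Of the 7 tested genes of 10 in the IL-12 family list, limma called 0 between kTreg and aTreg cells, and 2 were lower in kTreg cells at an unadjusted p below 0.05. Il27ra, a receptor chain for interleukin 27, had means of 7530 to 10823 normalised reads in the 6 groups.

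Around Areg, limma called 0 of the 4 tested genes of 8 other EGF family ligands between kTreg and aTreg cells, also at an unadjusted p below 0.05. Of its receptors 2 of 4 were tested, Erbb2 and Erbb3, and 0 were called, with 1 higher at an unadjusted p below 0.05. Of the 4 genes for shedding of these ligands, Rhbdf1, an inactive rhomboid protein, was higher in kTreg cells (2.58, adjusted p = 0.014). Adam17, the protease that releases amphiregulin from the membrane, had a log2 fold change below the fold threshold, with means of 1577 to 2720 normalised reads over the groups. Of the 4 genes for receptors of the alarmin IL-33 and of IL-18, Il1rl1, which encodes the IL-33 receptor ST2, was higher in kTreg than in aTreg cells by 4.57 on the log2 scale (adjusted p = 1.7e-14), with means of 4904 in young and 4388 in old kTreg cells against 203 and 186 in aTreg cells. Il18rap was higher as well (0.96, adjusted p = 0.0061).

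For Fgl2 a list of 5 genes was read, Fgl1, Fcgr2b, Fcgr3, Tigit and Lag3, of which Fgl1 was not among the listed genes. Between kTreg and aTreg cells limma called 0 of the 4 tested genes, and 1 was higher at an unadjusted p below 0.05. The Fgl2 receptor gene Fcgr2b had its highest mean, 193 normalised reads, in old rTreg cells. Fcgr3, with means of 20.8 to 731, was also highest in those libraries, which are the ones with macrophage and basophil markers. Tigit, an inhibitory receptor of Treg cells that induces Fgl2, was higher in kTreg than in rTreg cells (2.59, adjusted p = 4.8e-07).

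Proenkephalin is cut by prohormone convertases and trimmed by carboxypeptidases. Of the 7 tested genes of 8 for such processing, Cpe, carboxypeptidase E, was lower in kTreg than in aTreg cells (-1.56, adjusted p = 0.0048), with means of 440 against 1477 normalised reads in old mice. Pcsk1, which encodes prohormone convertase 1, was higher in kTreg than in rTreg cells (4.58, adjusted p = 0.0027) and in aTreg than in rTreg cells (4.23, adjusted p = 0.010). Its means were 141 in young and 484 in old kTreg cells, and 21.2 in young aTreg cells. The highest mean, 1392 ± 2075 (SD), was in old aTreg cells, whose libraries ran from 265 to 4500. Furin, a general convertase, lay between 851 and 1645 in group means. Pomc, another opioid precursor, had means of 15.5 to 35.2, and Oprm1, the mu opioid receptor, of 2.93 to 16.1.

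Of 14 other suppressive molecules, 7 were higher in kTreg than in aTreg cells and 0 lower by limma, with 1 lower at an unadjusted p below 0.05. Of all tested genes 4.13% were called higher in this contrast. The largest differences were those of Gzmb, the protease granzyme B (2.98, adjusted p = 2.2e-06), Itgae, the integrin CD103 (1.48, adjusted p = 2.3e-04), Ctla4, an inhibitory receptor (1.02, adjusted p = 6.1e-05), and Lgals1, galectin-1 (0.92, adjusted p = 0.025). The value of Lgals1 averaged unlike ages. Its means were 13333 in young kTreg against 2868 in young aTreg cells, but 6418 in old kTreg against 9344 in old aTreg cells. Of 12 tested genes of 14 other repair factors, Metrnl, a secreted meteorin-like protein, was higher (1.66, adjusted p = 0.0084), and Ptges, a prostaglandin E synthase, and Spp1, osteopontin, were lower (-3.87 and -2.64). Of 12 immediate early and heat shock genes, which can respond to cell handling, Nr4a1 was higher (0.70, adjusted p = 0.011) and 0 were lower by limma, also at an unadjusted p below 0.05. Group means of Hspa1b were 119, 260 and 404 in young rTreg, aTreg and kTreg cells. In old mice they were 846, 3892 and 3661. Means of Hspa1a, Fos, Fosb and Jun were also higher in old mice in each subset. Lower in old mice were Btg2 in rTreg, Nr4a1 in kTreg, and Egr1, Egr2, Atf3 and Nr4a1 in aTreg cells. The part of handling in the age differences of the members was not tested.

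**Figure D4:**
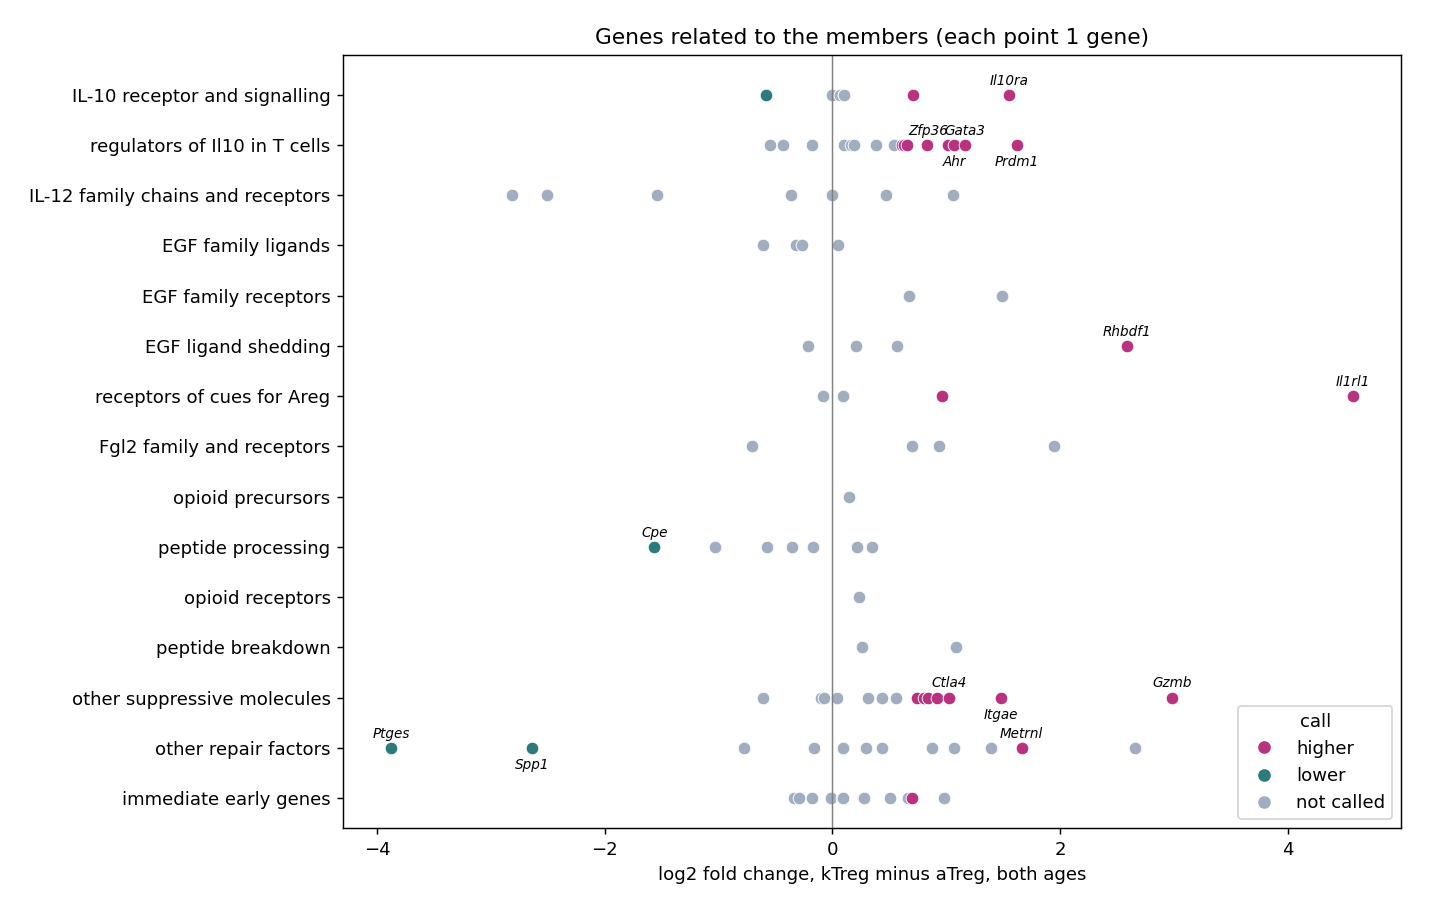
Log2 fold changes between kTreg and aTreg cells over both ages (x) for the genes of 15 lists related to the members (y). Each point is 1 gene, coloured by its call; Il1rl1 has the highest value, 4.57, and Ptges the lowest, -3.87.

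The genes whose levels followed each member most closely over the 24 libraries were ranked by the Pearson correlation of log2(value + 1). The libraries share 8 mice, and 6 groups with different means set most of such a correlation. For Il10 they were Nfil3 (r = 0.944), Matk, Maf, Aplp1 and Pvrig, of which Nfil3 and Maf were in the list of Il10 regulators. For Fgl2 they were Prdm1 (r = 0.972), Tmbim1, St14, Syt11 and Itgae. For Ebi3 they were Epcam (r = 0.973), Ccrl2, Itm2c, Gpr55 and Penk, and for Penk A830012C17Rik (r = 0.964), Tmbim1, Epcam, Gm8281 and Ebi3. The exons of A830012C17Rik overlap those of Penk, and the reads of these genes cannot be told apart, as stated above. Areg followed Ica1 (r = 0.918), 2610042L04Rik, Katnal1, Slc15a3 and 1700061F12Rik. Among the members themselves the closest pair was Ebi3 and Penk (r = 0.948) and the least close was Il10 and Areg (r = 0.666).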

How the data were processed

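Bulk RNA-seq values of 24 libraries were analysed: rTreg, aTreg and kTreg cells of 4 young and of 4 old mice. The authors sequenced SMART-Seq v4 cDNA, aligned the reads to GRCm39 with HISAT2 2.2.1, counted them per gene with HTSeq 1.99.2 and divided them by a DESeq2 1.44.0 size factor, so the deposited values are a normalized signal. The annotation release, the strand setting and the treatment of reads with several alignments are not given in the sources used here. Whole reads were recovered from the steps between values, with a tolerance of 0.001 reads. The range of reads per library stands with the results. Errors of group means are the SD over the 4 mice of a group. Errors of fold changes are standard errors of the limma fit, which shares the spread of a gene over all 6 groups. The mouse was not a term of that fit. Symbols and positions came from GENCODE on GRCm39, which held 17353 of the identifiers and not the other 111.

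Differences were tested with limma 3.58.1 (R 4.3.3). One model of the 6 groups, with a trend of variance on mean, was fitted to log2(value + 1). It covered 16630 genes, those that reached 10 normalised reads in 4 or more libraries. Such fold changes understate the change of low genes. Contrasts over both ages weighted the ages equally. Adjusted p-values are from Benjamini and Hochberg over all tested genes, and intervals cover 95%. The same mouse gave all 3 subsets, as the study's design states, so numbers pair libraries within an age. The median correlation of paired deviations from group means was 0.15 for aTreg and rTreg, 0.12 for kTreg and aTreg and 0.09 for kTreg and rTreg. Alternatives were the pseudocounts 0.5 and 5, all listed genes or those reaching 50 in place of the filter, the mouse as a block, the compared groups alone, TMM scaling, edgeR 4.0.16 and DESeq2 1.42.0 on recovered reads, unadjusted p and leaving out each library. Leaving out young mouse 2, or the young kTreg library of replicate 4 with the old aTreg library of replicate 2, was chosen after seeing the data. The fits were tested on simulated reads. The members and lists were chosen with earlier results of these data known. All members are named. From the related lists, up to 4 called genes a list with the largest change over both ages are named, and those whose product binds or processes a member's product. For each member the 5 genes most like it are named. Motifs were searched in RefSeq promoters of GRCm38.p6, whose coordinates are not those of the gene positions.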

Additional observations from a re-analysis of the deposited data

Results flagged for a closer look

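Of 30 groups of 4 libraries (5 members in 6 groups), 3 held a library whose gap to its nearest neighbour exceeded Dixon's 95% critical value, and chance gives about 1 in 20. Ebi3 stood low in the old aTreg library of replicate 2, at 439 normalised reads with the nearest at 785; this library also had the lowest Foxp3. Ebi3 stood high in the old kTreg library of replicate 3, at 1912 with the nearest at 1567. Fgl2 stood high in the young rTreg library of replicate 2, at 397 with the nearest at 193; that library had the highest macrophage and B cell marker sums of the young rTreg libraries, at 8460 and 16712.

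For Il10 the effect of age differed between subsets by a test of the difference itself. Its log2 difference between kTreg and rTreg cells changed by -3.58 from young to old mice, and that between aTreg and rTreg cells by -4.11, both past the threshold with limma.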

How the results depend on the processing

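The calls of Ebi3, Fgl2 and Penk between kTreg and aTreg cells over both ages and in young mice, those of all 5 members between kTreg and rTreg cells over both ages and in young mice, and that of Fgl2 between old and young rTreg cells kept their direction and stayed past the threshold in all alternatives run. With the mouse as a replicate block, 2 calls were gained and no other changed: Il10 between kTreg and rTreg cells in old mice (1.94, random block) and Areg between aTreg and rTreg cells in old mice (2.03, fixed block). Values are log2 fold changes throughout, and the cause of a change was not tested. A fit of the compared groups alone has fewer samples and takes the spread from those groups only. The unadjusted p drops the correction. Il10 rested on few reads in young rTreg cells, where 2 libraries held 3 and 5 reads.

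The fit of the compared groups alone called Il10 between kTreg and aTreg cells over both ages (1.23) and in old mice (1.49), and Areg (1.47) and Fgl2 (1.44) in old mice, 5 members there in place of 2. It called Areg between old and young aTreg cells (2.01), 1 member in place of 0. It lost Ebi3 between aTreg and rTreg cells in old mice (0.93), leaving 1 member, Il10 (3.08) and Penk (1.16) between old and young rTreg cells, leaving 1, and the age difference of Il10 between kTreg and rTreg cells (-3.58), leaving 0. Calls over all 16630 tested genes moved too. Between kTreg and aTreg cells in old mice 821 were higher in place of 222, and between old and young aTreg cells 508 in place of 308. Between aTreg and rTreg cells in old mice 519 were higher in place of 802, and between old and young rTreg cells 353 in place of 685. For the age difference between kTreg and rTreg cells 218 were lower in place of 337. edgeR called Il10 between kTreg and aTreg cells (1.28) and the age difference of Fgl2 between kTreg and rTreg cells (-2.22), and DESeq2 called both (1.28 and -2.21), so 2 members were lower there with each. For that age difference edgeR called 335 of all tested genes lower and DESeq2 610. DESeq2 also called Areg between kTreg and aTreg cells in young mice (1.86), Fgl2 between kTreg and aTreg cells (1.26), Il10 between kTreg and rTreg cells (1.64) and Fgl2 between aTreg and rTreg cells (1.12) in old mice, and Areg between old and young aTreg cells (1.78), 1 member there. In that last contrast DESeq2 called 440 of all tested genes higher. A pseudocount of 5 called Il10 between kTreg and rTreg cells in old mice (1.88).

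An unadjusted p added Il10 between kTreg and aTreg cells (1.23; old mice 1.49), Areg between aTreg and rTreg cells (1.30; old mice 2.03), Areg between kTreg and aTreg cells in young (2.02) and old mice (1.47), Fgl2 between kTreg and aTreg (1.44) and aTreg and rTreg cells (1.12) in old mice, Il10 between kTreg and rTreg cells in old mice (1.94), and Areg between old and young aTreg (2.01) and kTreg cells (1.45). It also added the age differences of Fgl2 against rTreg cells (-2.07 for kTreg and -1.32 for aTreg cells). Counts of members became 5 for kTreg and aTreg cells in old mice, 4 for aTreg and rTreg cells in old mice, 1 for age in aTreg and in kTreg cells and 2 for each age difference against rTreg cells. Of all 16630 tested genes, 823 were counted higher in old kTreg than in old aTreg cells, and 1826 in old aTreg than in old rTreg cells. For age, 844 were counted higher in aTreg and 1486 in kTreg cells. For the age differences against rTreg cells, 1006 (kTreg) and 1094 (aTreg) were counted lower.

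Without young mouse 2, Areg between kTreg and aTreg cells was lost (1.64) and the age difference of Fgl2 between kTreg and rTreg cells was called (-2.41), 2 members there. For that age difference 424 of 16301 tested genes were called lower. Without the young kTreg library of replicate 4 and the old aTreg library of replicate 2, Il10 between kTreg and rTreg cells (1.94) and Fgl2 between aTreg and rTreg cells (1.60) were called in old mice, Fgl2 between old and young aTreg cells (1.37), 1 member, and its age difference between kTreg and rTreg cells (-2.27), giving 2 members. That fit tested 16535 genes. It called 323 higher between old and young aTreg cells and 574 lower for that age difference. Values that were not called changed sign there for Ebi3 between old and young aTreg cells (0.016), Fgl2 between old and young kTreg cells (-0.056) and the age differences between kTreg and aTreg cells of Ebi3 (-0.055) and Il10 (-0.23).

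Leaving out each library in turn changed calls or uncalled signs over these ranges. Shares of all tested genes are not given for these fits. Between kTreg and aTreg cells over both ages Il10 ran from 1.08 to 1.46 (called without old rTreg replicate 4 or young kTreg replicate 4) and Areg from 1.56 to 1.93. In young mice Areg ran from 1.65 to 2.39. In old mice Ebi3 ran from 1.00 to 1.31 (lost without old aTreg replicate 2 or old kTreg replicate 3) and Fgl2 from 0.96 to 1.65, with 1 to 3 members called. Il10 between kTreg and rTreg cells in old mice ran from 1.26 to 2.27. Between aTreg and rTreg cells Areg ran from 0.79 to 1.58 over both ages, and in old mice Areg ran from 1.00 to 2.59, Ebi3 from 0.79 to 1.15 (lost without old rTreg replicate 4 or old aTreg replicate 1, 3 or 4), Fgl2 from 0.84 to 1.60 and Il10 from -0.23 to 0.78, with 1 to 3 members called. Between old and young mice, Penk ran from 0.87 to 1.38 and Areg from -0.011 to 1.57 in rTreg cells, Areg from 1.64 to 2.38 and Ebi3 from -0.35 to 0.016 in aTreg cells (0 to 1 member called), and Fgl2 from -0.056 to 0.33 in kTreg cells. The age difference between kTreg and rTreg cells ran from -4.26 to -3.10 for Il10, from -2.38 to -1.80 for Fgl2 and from -0.12 to 1.47 for Areg, with 0 to 2 members called, and that between aTreg and rTreg cells from -4.79 to -3.64 for Il10, with 0 to 1. The age difference of Ebi3 between kTreg and aTreg cells ran from -0.10 to 0.26. Calls were gained for Areg between kTreg and aTreg cells in young mice and between the ages in aTreg cells without old rTreg replicate 4, for Fgl2 between kTreg and aTreg cells in old mice without young kTreg replicate 4, for Fgl2 between aTreg and rTreg cells in old mice without old aTreg replicate 2, for Areg between aTreg and rTreg cells without old rTreg replicate 2 and, in old mice, also young kTreg replicate 4, for Il10 between kTreg and rTreg cells in old mice without young rTreg replicate 1 or 3, old rTreg replicate 2 or young kTreg replicate 4, and for the age difference of Fgl2 without young rTreg replicate 2, old rTreg replicate 3 or 4, old aTreg replicate 2 or young kTreg replicate 4.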
